A study of Mus musculus with 4 samples.

Results

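In all, 9 mouse loci of Sox genes were examined for Ring1b: Sox1, Sox2, Sox14, Sox21, Sox11, Sox5, Sox6, Sox17 and Sox18. The loci were set as windows on the mouse build mm9, and every region of the deposited table that overlapped a window was taken, without use of its value. The windows were 70 to 100 kb long, except for 460 kb at Sox5 and 670 kb at Sox6. They held 13 of the 6371 regions of the table: 9 at Sox6, 2 at Sox1, 1 at Sox14 and 1 at Sox21. The windows of Sox2, Sox11, Sox5, Sox17 and Sox18 held no region.

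The cells were C3H10T1/2, mesenchymal progenitors from mouse embryos that can form cartilage, bone, fat and muscle. They stably expressed a FLAG-HA-tagged histone H3.3, either with lysine 36 replaced by methionine (H3.3K36M) or wild type (H3.3WT). Ring1b was mapped by chromatin immunoprecipitation and sequencing (ChIP-seq), with 1 Ring1b and 1 input library per form. The question was how the distribution of Ring1b differs between the forms. Values of the 2 Ring1b libraries were used here. The sources used here do not say whether the cells of each form came from 1 clone or from a pool.

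Sox proteins are transcription factors that bind DNA through an HMG box, and they are sorted into subgroups by the likeness of that box. Sox1 and Sox2 (SoxB1) keep neural progenitors undifferentiated, and Sox14 and Sox21 (SoxB2) act largely as repressors in the developing nervous system. Sox11 (SoxC) acts in maturing neurons and in organ formation, Sox5 and Sox6 (SoxD) work with Sox9 in cartilage, and Sox17 and Sox18 (SoxF) act in endoderm and in blood and lymph vessels. Ring1b is the ubiquitin ligase of Polycomb repressive complex 1, which marks histone H2A at silent developmental genes, often over stretches of DNA rich in CG dinucleotides.

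Because Polycomb complexes are known to gather at CG-rich DNA, the CG content of the Sox promoters was read from RefSeq sequences (build GRCm38.p6, from 250 bases before to 50 after each start). The sequences matched 7 of the 9 genes. These coordinates belong to another build than the Ring1b regions and cannot be laid over them. Below are 2 promoters of loci with a Ring1b region, Sox1 (chr8:12395269-12395568, plus strand) and Sox21 (chr14:118236981-118237280, minus strand). They are followed by 2 promoters of loci without one, Sox2 (chr3:34649745-34650044, plus strand) and Sox11 (chr12:27342669-27342968, minus strand). Each is written 5′ to 3′ with every CG in capitals. They are shown so that CG-rich promoters of loci with and without a Ring1b region can be read side by side.
Sox1: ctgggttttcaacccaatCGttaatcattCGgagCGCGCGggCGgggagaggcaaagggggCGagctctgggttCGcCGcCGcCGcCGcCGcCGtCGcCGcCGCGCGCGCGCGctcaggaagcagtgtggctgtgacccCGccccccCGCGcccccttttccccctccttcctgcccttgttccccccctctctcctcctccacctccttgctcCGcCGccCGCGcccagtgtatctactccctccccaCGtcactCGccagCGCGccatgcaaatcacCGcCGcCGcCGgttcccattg
Sox21: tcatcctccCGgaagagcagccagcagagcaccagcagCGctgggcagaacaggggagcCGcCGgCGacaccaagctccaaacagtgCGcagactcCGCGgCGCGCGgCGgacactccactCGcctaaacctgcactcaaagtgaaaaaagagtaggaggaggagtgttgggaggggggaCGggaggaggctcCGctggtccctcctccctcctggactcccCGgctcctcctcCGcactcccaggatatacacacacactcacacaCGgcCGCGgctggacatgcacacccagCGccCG
Sox2: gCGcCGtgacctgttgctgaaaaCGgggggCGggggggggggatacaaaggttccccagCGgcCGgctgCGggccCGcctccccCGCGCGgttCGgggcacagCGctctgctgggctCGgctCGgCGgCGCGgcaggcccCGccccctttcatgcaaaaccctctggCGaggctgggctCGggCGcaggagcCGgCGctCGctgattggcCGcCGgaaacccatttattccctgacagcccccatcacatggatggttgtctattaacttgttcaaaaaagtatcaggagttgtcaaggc
Sox11: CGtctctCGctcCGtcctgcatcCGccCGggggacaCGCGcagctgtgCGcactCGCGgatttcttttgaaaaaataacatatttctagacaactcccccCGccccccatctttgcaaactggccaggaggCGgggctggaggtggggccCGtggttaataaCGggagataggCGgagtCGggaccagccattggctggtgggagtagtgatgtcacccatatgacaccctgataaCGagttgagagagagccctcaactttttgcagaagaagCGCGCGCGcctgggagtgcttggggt

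The Sox1 promoter held 37 CG dinucleotides, the Sox14 promoter 26 and the Sox21 promoter 22, all genes with a Ring1b region in their window. The Sox2 promoter held 27 and the Sox11 promoter 21, and neither gene had a region. CG reads the same on both strands, so that a single count covers both. Over all 32851 RefSeq promoters of this length the median was 7. At least as many CG as in Sox1 were found in 5.58% of them, as in Sox14 in 16.9%, as in Sox21 in 23.1%, as in Sox2 in 15.5% and as in Sox11 in 24.8%. The counts of Sox14 and Sox21 were thus close to those of Sox2 and Sox11. The single Sox5 start among these sequences held 3, and whether it is the main start of the gene was not checked. Sox6 has 6 starts in RefSeq, with 2 to 13 CG. Its window, the longest, held the most regions. Whether these lie at any of its starts is not known, and the CG content of the regions themselves was not measured. A link between CG content and the presence of a region was not tested.

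**Figure D1:**
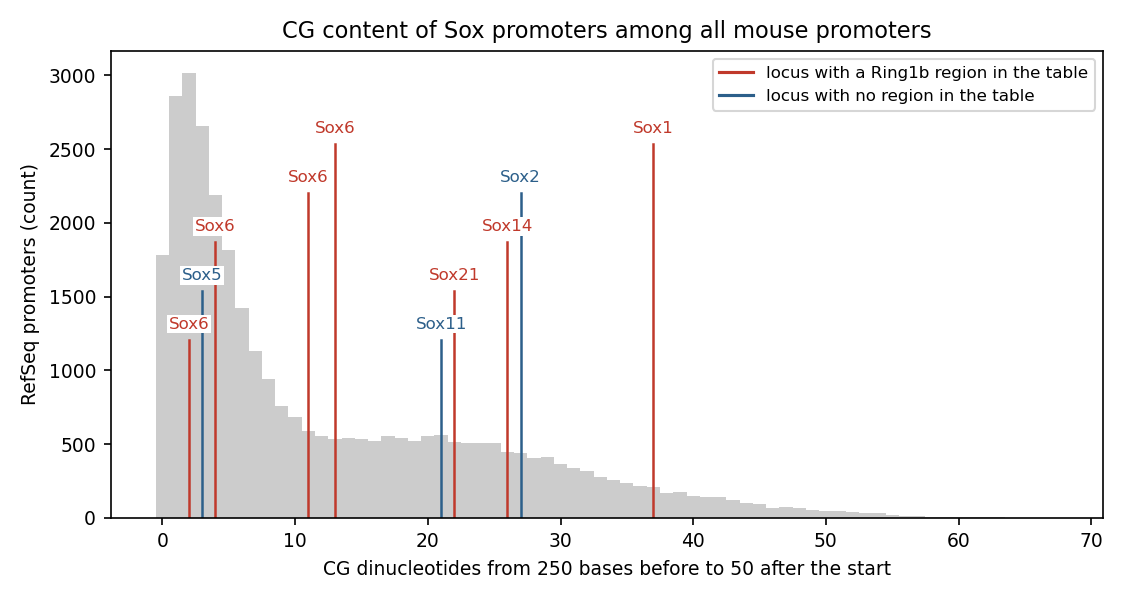
CG dinucleotides in RefSeq promoters, from 250 bases before to 50 after the start. Grey bars count all 32851 promoters, red lines mark Sox genes with a Ring1b region in their window and blue lines those without; equal counts of Sox6 starts share 1 line. Sox14 (26) and Sox21 (22) lie beside Sox2 (27) and Sox11 (21).

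Levels are given in RPM, reads in a region per 1000000 reads of the library, not divided by the width of the region. All values were, within 0.01 of a step, whole multiples of 0.0317 RPM in H3.3K36M and of 0.0335 RPM in H3.3WT, and this step was taken as 1 read. Read counts and counting intervals rest on that reading, while the plain ratio of a single region does not. Levels, densities and summed ratios rest on reading the deposited values, which are headed RPKM, as RPM. Over the whole table, 720528 reads fell into the regions in H3.3K36M and 1075510 in H3.3WT. With 1 library per form there was no replicate check and no test. The intervals given are exact 95% counting intervals (Clopper-Pearson) of the ratio H3.3K36M/H3.3WT. They cover counting error only, not the spread between cultures, and PCR copies of 1 molecule can count as several reads. The table lists regions associated with peaks of the H3.3WT library, by its name. Regions picked in one library tend to lie lower in another, to an extent that was not measured, and sites bound only in H3.3K36M cells would not be listed.

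Ring1b was lower in H3.3K36M cells at every Sox region. All 13 of 13 were lower, against 85.1% of all 6371 regions, and all 13 had a counting interval wholly below 1, against 65.1%. The fold counts below use log2((H3.3K36M + 0.1)/(H3.3WT + 0.1)). At least 1.5-fold lower were 13 of 13 Sox regions and 53.4% of all regions. At least 2-fold lower were 13 of 13 and 33.5%, and at least 4-fold lower were 7 of 13 and 8.26%. Of these 7, 6 lay at Sox6 and 1 was the Sox21 region, which stood at the limit with a log2 ratio of -2.00. With 1 RPM added in place of 0.1, which shrinks the change of low regions, 10 of the 13 Sox regions and 19.4% of all regions passed the 2-fold limit, and 2 and 1.15% the 4-fold limit. The 13 regions are not independent, since 9 belong to Sox6 and 3 of those touch.

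The median log2 ratio was -2.00 over the 13 Sox regions, with a range of -2.67 to -1.01, and -0.65 over all regions. It was -2.28 over the 9 Sox6 regions and -1.23 over the other 4. Ratios themselves went from 0.109 to 0.495. Together the Sox regions held 33.9 RPM in H3.3K36M and 112 RPM in H3.3WT (1068 and 3342 reads). When the log2 ratios were centred on the median of all regions (-0.65), 8 of the 13 were still lower by 2-fold or more, against 13.9% of all regions, and 1 of them by 4-fold or more, against 2.10%. Whether the low table median comes from the cells, the immunoprecipitation or the choice of H3.3WT peaks cannot be told apart with 1 library per form.

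**Figure D2:**
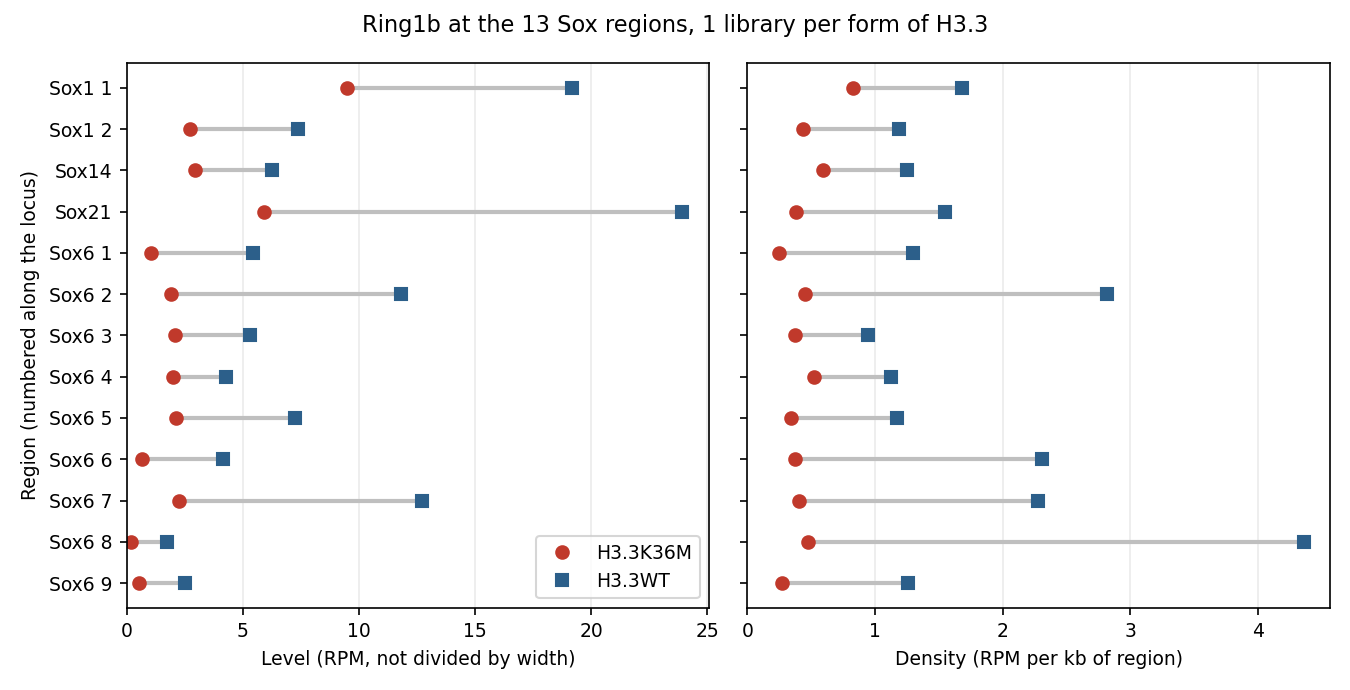
Ring1b at the 13 Sox regions as level (left, RPM) and as density (right, RPM per kb), with H3.3K36M as red circles and H3.3WT as blue squares; regions are numbered along each locus and each point is 1 library. Every red circle lies left of its blue square, and the H3.3K36M densities lie between 0.249 and 0.831 RPM per kb.

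Sox1, of the SoxB1 genes, had Ring1b over the largest share of its window (19.6%), in regions of 11400 and 6200 bp separated by 400 bp. The wider region, chromosome 8, 12381401 to 12392800, held 9.48 RPM in H3.3K36M and 19.2 RPM in H3.3WT. Its ratio of 0.495 (interval 0.429 to 0.570) was the highest of the 13. The narrower one, 12393201 to 12399400, held 2.73 RPM in H3.3K36M and 7.37 RPM in H3.3WT, a ratio of 0.370 (0.285 to 0.477). The intervals of the Sox1 regions overlap. Summed, Sox1 held 12.2 RPM in H3.3K36M and 26.5 RPM in H3.3WT, a ratio of 0.460 (0.406 to 0.520) or 2.17-fold lower.

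The wider Sox1 region kept the highest H3.3K36M density of the 13, 0.831 RPM per kb, against 1.68 in H3.3WT. Among the 1215 regions of the table over 8000 bp wide, 87.4% had a lower H3.3K36M density and 96.3% a lower H3.3WT density. The narrower Sox1 region stood at 0.440 RPM per kb in H3.3K36M and 1.19 in H3.3WT. In RefSeq the noncoding gene Sox1ot overlaps Sox1, so that a region here may belong to either. The nearest region outside the window, 311 kb above it, was not lower: it held 11.6 RPM in H3.3K36M and 10.5 RPM in H3.3WT, a ratio of 1.11 (0.949 to 1.29).

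Sox2, the other SoxB1 gene and a core factor of pluripotent cells, had no region between 34.5 and 34.6 Mb of chromosome 3. The nearest regions were 3578 kb below and 1601 kb above the window, so that the absence reaches far beyond the gene. No row of the table means that no H3.3WT peak was listed there. It gives no level for either form of H3.3.

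Sox14, of the SoxB2 genes, had a single region of 5000 bp, chromosome 9, 99767601 to 99772600. It held 2.95 RPM in H3.3K36M and 6.26 RPM in H3.3WT (93 and 187 reads), a ratio of 0.471 (0.363 to 0.607). Its density was 0.590 RPM per kb in H3.3K36M and 1.25 in H3.3WT. The medians for the 2360 regions of 2200 to 8000 bp were 0.751 and 1.23, so that only the H3.3WT density was close to its median. In that class, 29.7% had a lower H3.3K36M density and 51.6% a lower H3.3WT density. Of those regions, 28.1% had a lower log2 ratio, so that Sox14 was not at the low end of its width class. The next region, 386 kb below the window, had a like ratio of 0.536 (0.464 to 0.620).

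Sox21, the second SoxB2 gene, had the widest region and the highest H3.3WT level of the 13. The region covered 15400 bp of chromosome 14, 118627001 to 118642400. It held 5.90 RPM in H3.3K36M and 23.9 RPM in H3.3WT (186 and 713 reads). Only 0.424% of all regions, of any width, had an H3.3WT level as high or higher, but this level is not divided by width. The H3.3WT density of Sox21, 1.55 RPM per kb, was below the median of all regions, 1.75. Among regions over 8000 bp wide, 95.1% had a lower H3.3WT density. The ratio was 0.247 (0.209 to 0.290), which is 4.05-fold lower. Among the 1215 regions over 8000 bp wide, 1.15% had a lower log2 ratio, and 1.23% were at least 4-fold lower.

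Sox21 stood at 0.383 RPM per kb in H3.3K36M and the wider Sox1 region at 0.831, against like densities of 1.55 and 1.68 in H3.3WT. The counting intervals of their ratios do not overlap. This sets 2 regions of the same pair of libraries against each other, with no between-culture error. Chromosome 14 as a whole was low, with a median log2 ratio of -1.06 over its 233 other regions. Chromosome 8 was close to equal, with -0.18 over its 663 others. Whether runs of closely spaced regions set the chromosome 8 median was not tested. The 2 regions within 500 kb of the Sox21 window were both at least 2-fold lower, against 33.5% of all regions. The nearest, 155 kb above, had a ratio of 0.193 (0.0909 to 0.373). The part of these surroundings in the Sox21 and Sox1 values was not tested.

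Sox11, of the SoxC genes, had no region in its window on chromosome 12 (27.98 to 28.07 Mb). The nearest regions were 1956 kb below and 2437 kb above it.

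**Figure D3:**
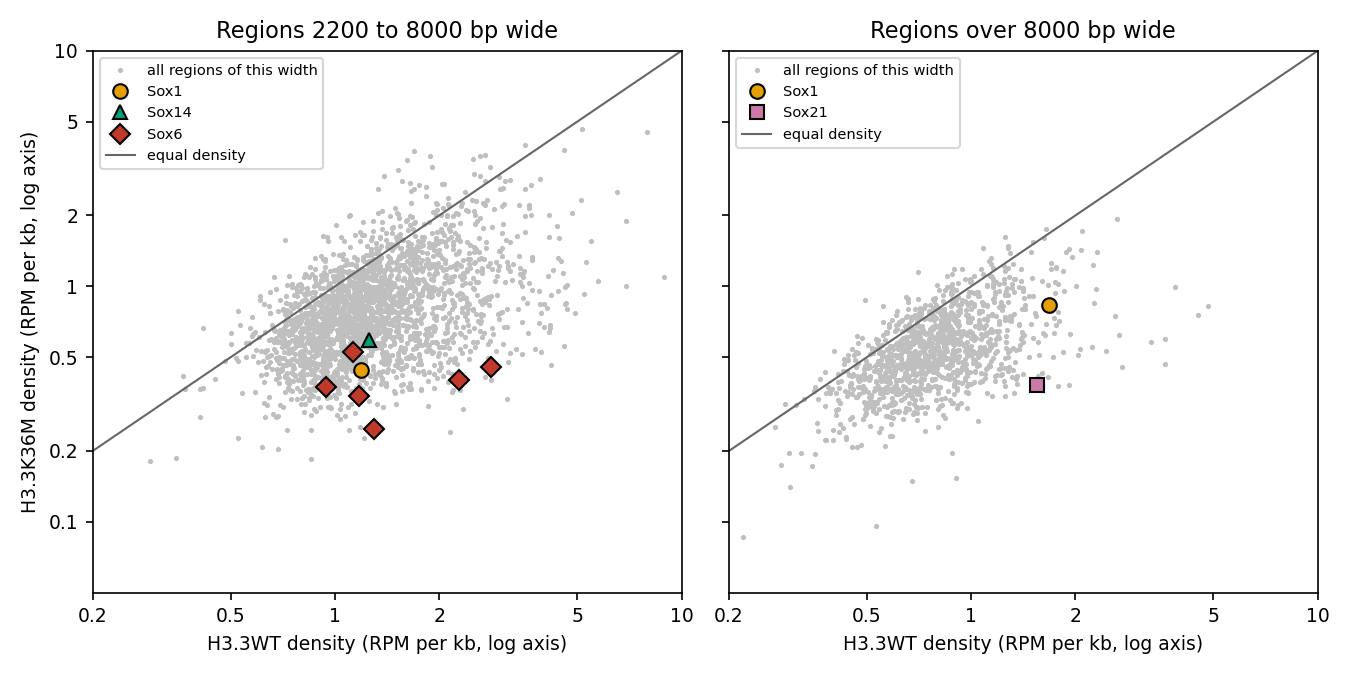
Ring1b density in H3.3K36M against H3.3WT (RPM per kb, log axes) for all regions of 2200 to 8000 bp (left) and over 8000 bp (right) in grey, with the Sox regions of that width in colour; 10 of the 13 are of these widths, and regions outside the axes are not drawn. The line marks equal density. Sox21 and most Sox6 regions lie low among the grey points, with Sox21 at 0.383 and the wider Sox1 region at 0.831 RPM per kb in H3.3K36M.

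Sox6, of the SoxD genes, which with Sox5 supports cartilage formation and also acts in muscle fibres and red blood cells, had 9 regions spread along its window on chromosome 7 (122.58 to 123.25 Mb). They covered 33800 bp, 5.04% of the window, and were 400 to 6200 bp wide. Summed, they held 12.8 RPM in H3.3K36M and 55.3 RPM in H3.3WT (404 and 1650 reads). The ratio was 0.232 (0.207 to 0.258), or 4.32-fold lower. At 6 of the 9 the level was at least 4-fold lower, against 8.26% of all regions. The gene table used here is of another build, so that no region is assigned to a promoter, exon or intron of Sox6.

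The first Sox6 region, 122628401 to 122632600, held 1.05 RPM in H3.3K36M and 5.46 RPM in H3.3WT, a ratio of 0.192 (0.128 to 0.280). The second, 122765201 to 122769400, held 1.90 RPM in H3.3K36M and 11.8 RPM in H3.3WT, a ratio of 0.161 (0.120 to 0.212). The third lay only 1000 bp further on, at 122770401 to 122776000, with 2.09 RPM in H3.3K36M and 5.29 RPM in H3.3WT. Its ratio of 0.395 (0.292 to 0.530) was higher than that of its neighbour, and the intervals do not overlap. In H3.3K36M both had close densities, 0.453 RPM per kb in the second and 0.374 in the third. In H3.3WT the second was the denser, with 2.82 against 0.945.

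The fourth Sox6 region, 122873801 to 122877600, had the highest ratio of the locus, 0.466 (0.339 to 0.635), from 2.00 RPM in H3.3K36M and 4.29 RPM in H3.3WT. The fifth, 122967801 to 122974000, held 2.12 RPM in H3.3K36M and 7.27 RPM in H3.3WT, a ratio of 0.292 (0.219 to 0.386). After a gap of 241600 bp came a group of 4 regions within 17400 bp, where all ratios were low. The sixth region, 123215601 to 123217400, held 0.666 RPM in H3.3K36M and 4.15 RPM in H3.3WT, a ratio of 0.160 (0.0958 to 0.256).

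The last 3 Sox6 regions touch and form 1 stretch of 8000 bp, 123225001 to 123233000. Most of its reads lay in the seventh region, 123225001 to 123230600, with 2.25 RPM in H3.3K36M and 12.7 RPM in H3.3WT, a ratio of 0.177 (0.135 to 0.228). The eighth, of 400 bp, had the lowest ratio of the 13, 0.109, but from 6 reads in H3.3K36M and 52 in H3.3WT, so that its interval is wide (0.0383 to 0.254). The ninth, 123231001 to 123233000, held 0.539 RPM in H3.3K36M and 2.51 RPM in H3.3WT, a ratio of 0.214 (0.119 to 0.367). Taken as 1 stretch, they held 2.98 RPM in H3.3K36M and 17.0 RPM in H3.3WT, a ratio of 0.175 (0.139 to 0.219) or 5.70-fold lower. The first 5 Sox6 regions summed to a ratio of 0.268 (0.235 to 0.306) and the last 4 to 0.172 (0.140 to 0.211). These counting intervals do not overlap, but they hold no between-culture error. Regions 1 and 2, at 0.192 and 0.161, lay within the range of the last 4 (0.109 to 0.214). The higher sum of the first 5 thus came from regions 3, 4 and 5, at 0.395, 0.466 and 0.292. The sums therefore do not mark 2 parts of the locus with different ratios.

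**Figure D4:**
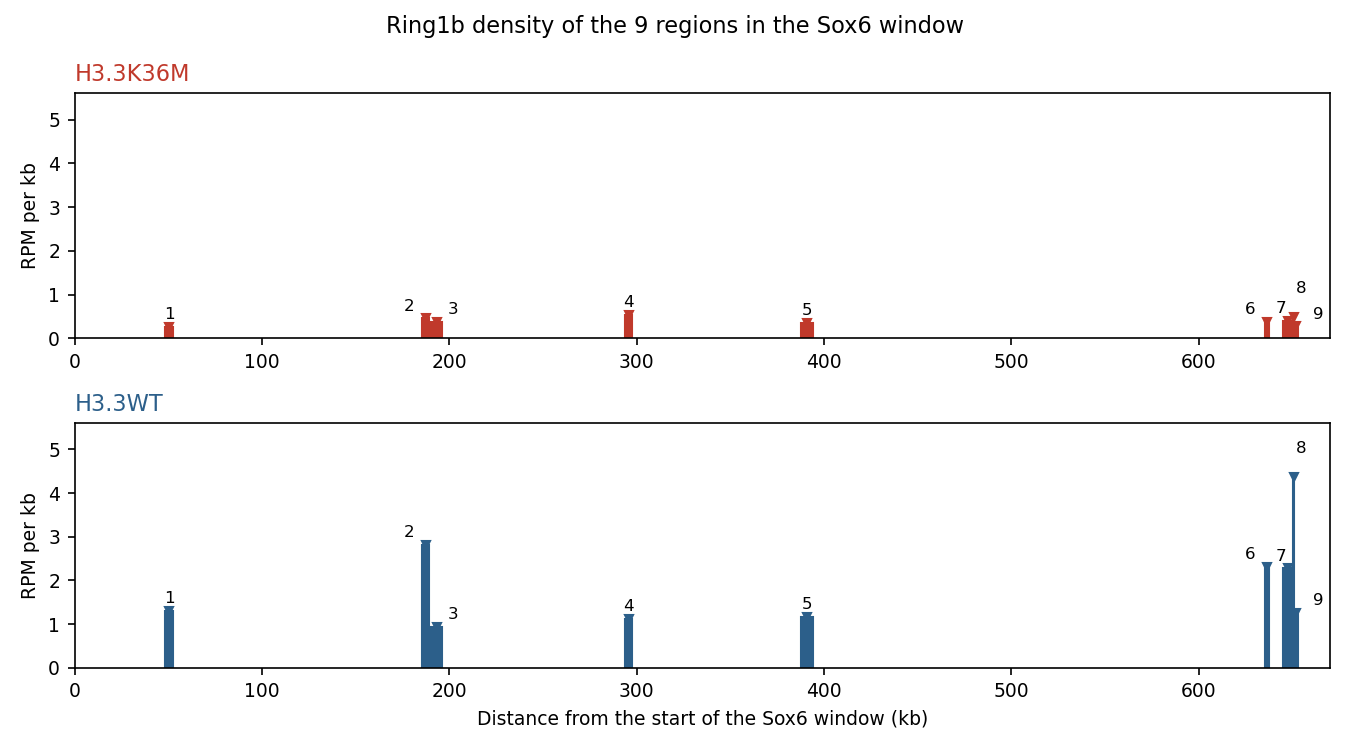
Ring1b density (RPM per kb) of the 9 Sox6 regions by distance from the start of the 670-kb window, in H3.3K36M (top) and H3.3WT (bottom) on the same scale; bars are drawn to the width of each region, triangles mark their tops and numbers give their order. Heights range from 0.249 to 0.526 in H3.3K36M and from 0.945 to 4.36 in H3.3WT.

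The Sox6 regions differed less among themselves in H3.3K36M than in H3.3WT. Their densities ran from 0.249 to 0.526 RPM per kb in H3.3K36M, against 0.945 to 4.36 in H3.3WT. The 4.36 is that of the 400-bp eighth region, and the next highest was 2.82. Narrow regions are denser in the table, with an H3.3WT median of 6.62 at 200 to 400 bp and 1.23 at 2200 to 8000 bp. In H3.3K36M the Sox6 densities were low for the table. Of the 2360 regions of 2200 to 8000 bp, between 0.508% and 21.1% had a lower density than the 6 Sox6 regions of that width. In H3.3WT the same 6 ranged from the 23.4th to the 94.7th percentile. Values include background reads, whose level is not known because input values were not analysed here. How much of the H3.3K36M reads at Sox6 is Ring1b was not tested.

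Low ratios extended past the Sox6 window. Within 500 kb on either side lay 13 further regions, with a median log2 ratio of -1.44. All 13 were lower in H3.3K36M, against 85.1% of all regions, and 11 were at least 2-fold lower, against 33.5%. The nearest, 52 kb below the window, held 0.856 RPM in H3.3K36M and 4.02 RPM in H3.3WT, a ratio of 0.213 (0.135 to 0.325) like that of Sox6 itself. The nearest above, at 92.4 kb, had a higher ratio of 0.566 (0.439 to 0.725). The 179 other regions of chromosome 7 had a median of -0.66, near that of the table.

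Sox5, the partner of Sox6 in cartilage, had no region in its 460-kb window on chromosome 6 (143.74 to 144.2 Mb). The nearest regions lay 1518 kb below and 991 kb above the window. They had nearly equal levels in both forms, with ratios of 1.00 (0.772 to 1.31) and 1.16 (0.974 to 1.39). The 2 SoxD genes thus differed in whether any H3.3WT peak was listed.

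Neither SoxF gene had a region. The Sox17 window (chromosome 1, 4.45 to 4.53 Mb) had its nearest region 312 kb above, with 4.31 RPM in H3.3K36M and 5.33 RPM in H3.3WT. No region of the table lay below the Sox17 window. The Sox18 window (chromosome 2, 181.37 to 181.44 Mb) lay between regions 167 kb below and 212 kb above it. The lower one, 22600 bp wide, held 11.9 RPM in H3.3K36M and 25.0 RPM in H3.3WT, a ratio of 0.476 (0.420 to 0.540), and the upper one was near equal at 1.07 (0.810 to 1.41).

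By summed ratio the loci were ordered Sox6 (0.232), Sox21 (0.247), Sox1 (0.460) and Sox14 (0.471). Sox6 and Sox21 were nearest to each other, 0.10 apart on the log2 scale, and Sox1 and Sox14 were 0.05 apart. Within each of these pairs the counting intervals overlap. The intervals of Sox21 (0.209 to 0.290) and Sox1 (0.406 to 0.520) do not. The SoxB2 genes Sox14 and Sox21 fell into different pairs. SoxB2 is the only subgroup with regions at both of its listed genes, so whether the order follows the subgroups cannot be told.

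Sox regions were compared with regions of like width because the ratio varies with width in the table. The 8 Sox regions of 2200 to 8000 bp had a median log2 ratio of -1.57, against -0.69 for all 2360 of that width, of which 31.5% were at least 2-fold lower. The 2 over 8000 bp, of Sox1 and Sox21, were at -1.01 and -2.00, against a median of -0.53 for all 1215, of which 18.7% were at least 2-fold lower. In the first class the median H3.3K36M density was 0.421 RPM per kb for Sox and 0.751 for all, and the median H3.3WT density 1.22 for Sox and 1.23 for all. In the second class the H3.3K36M medians were 0.607 for Sox and 0.519 for all, and the H3.3WT medians 1.62 for Sox and 0.775 for all. The 0.607 stands between 2 unlike regions, Sox21 at 0.383 and Sox1 at 0.831 RPM per kb. Of that class, 19.2% had a lower H3.3K36M density than Sox21 and 87.4% a lower one than Sox1. The other 3 Sox regions, all of Sox6, were narrower, and each was at least 4-fold lower. The 400-bp region, at -2.67, belongs to a class of 1906 regions of 200 to 400 bp with a median of -0.59, of which 39.2% were at least 2-fold and 15.2% at least 4-fold lower. The pair of 1800 and 2000 bp had a median of -2.25. The 890 regions of 600 to 2000 bp had -0.91, with 47.0% at least 2-fold and 13.3% at least 4-fold lower. In the wider classes, at least 4-fold lower were 3 of the 8 Sox regions of 2200 to 8000 bp, against 4.41% of that class, and 1 of the 2 over 8000 bp, against 1.23%. None of the 13 lay in a run of 10 or more regions with gaps of at most 2000 bp. Outside such runs, 36.6% of regions were at least 2-fold lower, against 33.5% of all regions.

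**Figure D5:**
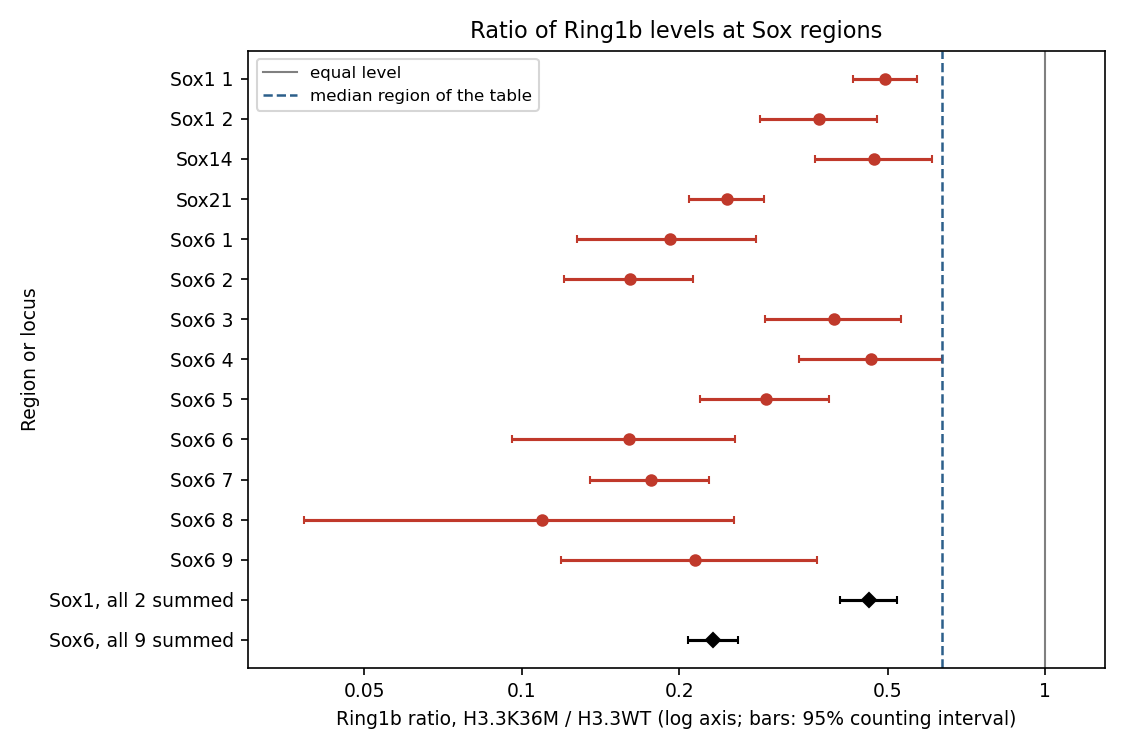
Ring1b ratio H3.3K36M/H3.3WT (log axis) of the 13 Sox regions (red) and of the summed regions of Sox1 and Sox6 (black), with 95% counting intervals; the grey line marks equal levels and the dashed line the median region of the table (0.636). All intervals lie below 1, and Sox21 with most Sox6 regions lies left of Sox1 and Sox14.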

How the data were processed

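Per the labels' protocols, chromatin was fixed, sonicated and incubated with a Ring1b antibody. The build mm9 and Bowtie 1.0.0 are named, per the submitters' processing notes; for peak calling and read counting no tool is named in the sources used here. The authors deposited 1 value per region and Ring1b library under columns headed RPKM. All values are whole multiples of 1 step per library (tolerance 0.01 reads), whatever the width, so the deposited values were read as RPM. Dividing by the step, taken as 1 read, gave reads per region. If the scale is exactly RPM, the steps imply about 31545741 reads in H3.3K36M and 29850746 in H3.3WT, of which only the leading digits count.

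Regions overlapping each Sox window by any length were taken; starts are printed counted from 1. Ratios with exact counting intervals used SciPy 1.17.1 (Python 3.11.15), log2 ratios a pseudocount of 0.1 RPM, and the interval code was tested on simulated reads. No test between the forms was made. The loci and comparisons were chosen with earlier results of these data known. All 9 loci with all their regions are named. Other Sox genes were not analysed here, for want of an mm9 annotation. Alternatives are given in the closing section.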

Additional observations from a re-analysis of the deposited data

How the results depend on the processing

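The median log2 ratio of the 13 Sox regions was -1.20 when 1 RPM was added before the logarithm. It was -1.57 without the regions in the lowest 25% of mean level and -1.35 relative to the median region. With regions within 2000 bp merged it was -2.00, as with windows narrowed by 10 kb, which kept all 13 regions. Without Sox6 the median was -1.23. In the main setting all 13 log2 ratios were -1.01 or lower. Dropping or merging regions or adding 1 RPM thus could not give a positive median, and its sign there is no support. Counting each locus once, an alternative chosen after the data were seen, gave -1.56. The median was -2.52 with the 4 regions whose H3.3WT density reached the median of the table, all of Sox6. That alternative keeps regions by their H3.3WT value, the denominator of the ratio. It favours a low median from the start and is no support. The cut is taken over all widths and drops Sox21 and the wider Sox1 region, at 1.55 and 1.68 RPM per kb in H3.3WT. Fewer regions then count. The numbers at least 1.5-fold, 2-fold and 4-fold lower were all 4, against 59.0%, 45.3% and 15.8% of all regions of such density. Relative to the median region, 8 of the 13 were lower by 2-fold or more (13.9% of all regions) and 1 by 4-fold or more (2.10%). The number at least 4-fold lower, also added later, was 2 of 13 with the larger pseudocount (1.15% of all regions) and 4 of 10 without the regions of lowest level (3.66% of those kept).

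Relative to the median region, the summed ratios were 0.723 at Sox1, 0.740 at Sox14, 0.388 at Sox21 and 0.364 at Sox6. With both libraries scaled to equal totals over the table they were 0.726, 0.742, 0.389 and 0.365 in the same order. The median of all regions was -0.51, -0.54 and -0.74 with the larger pseudocount, without the regions of lowest level and without dense runs, the last chosen after the data were seen. No paired analysis was possible because each form has 1 Ring1b library. Depth limits the narrow regions most: the eighth Sox6 region rests on 6 reads in H3.3K36M. Absent loci have no value in either form.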
